A study of Mus musculus with 6 samples.

Results

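Methylation valleys are stretches of the mouse genome in which several neighbouring windows of CpG sites were nearly free of methylation. They were sought in enzymatic methyl-seq (EM-seq) profiles of mouse embryonic stem cells (mESCs) sorted into G1 and G2/M, the cell cycle phases before and after DNA replication. A valley was defined as a run of 3 or more consecutive windows on chromosomes 1 to 19, each with a mean under 15% CpG methylation over the 6 libraries and with gaps of at most 2000 bp. The windows were therefore selected on the measured percentages themselves, and their low methylation is a description rather than a result. The rule gave 365 valleys made of 1217 windows, out of 344780 autosomal windows and 359192 windows in the whole table. A further 8726 autosomal windows had a mean under 15% but lay in no such run, and they are called isolated windows here.

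All 6 libraries came from E14TG2a, a mESC line of the 129/Ola strain grown in serum with LIF. Cells were labelled with the thymidine analogue EdU, fixed and sorted on EdU and on DNA content stained by propidium iodide, which gave 3 biological replicates of G1 (G1 replicates 1 to 3) and 3 of G2/M (G2/M replicates 1 to 3). The 6 libraries share 1 cell line and 1 culture condition, so the values do not cover variation between lines. EM-seq reads 5-methylcytosine and 5-hydroxymethylcytosine together, and no read counts accompany the percentages. The paper kept windows with at least 1 in 5 CpGs observed in every dataset. The depth behind a value is unknown beyond that, and no counting interval can be given. Each window holds 100 CpG positions counted over both strands, and its value is the percentage of methylated calls.

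In mammalian genomes most CpGs are methylated, and the main exceptions are CpG islands at gene promoters and active enhancers. Longer unmethylated stretches, often called valleys or canyons, are known at genes of developmental transcription factors held silent by Polycomb proteins and, in stem cells, around highly active genes. TET enzymes, which oxidise 5-methylcytosine, and proteins that bind unmethylated CpGs are known to keep such regions free of methylation.

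The sequences under the valleys ranged from dense CpG islands to DNA with few CpGs. Below, 6 stretches of GRCm38 are shown because they mark both ends of this range and the windows to which later results refer, with every CpG in capitals. The first is the sequence upstream of Rap2a, the valley with the lowest methylation (chr14:120478211-120478460, plus strand, 39 CpGs in 250 bases), from the RefSeq promoter table.
Rap2a upstream: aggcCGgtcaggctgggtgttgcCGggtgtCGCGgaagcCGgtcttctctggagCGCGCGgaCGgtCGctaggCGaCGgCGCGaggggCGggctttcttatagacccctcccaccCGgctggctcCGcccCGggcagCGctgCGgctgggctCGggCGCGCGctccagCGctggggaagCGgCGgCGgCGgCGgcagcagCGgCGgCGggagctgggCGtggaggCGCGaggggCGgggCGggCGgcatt
Next is the sequence upstream of Wnt7a, in the valley window with the smallest phase p-value (chr6:91411354-91411603, minus strand, 34 CpGs in 250 bases), from the same table.
Wnt7a upstream: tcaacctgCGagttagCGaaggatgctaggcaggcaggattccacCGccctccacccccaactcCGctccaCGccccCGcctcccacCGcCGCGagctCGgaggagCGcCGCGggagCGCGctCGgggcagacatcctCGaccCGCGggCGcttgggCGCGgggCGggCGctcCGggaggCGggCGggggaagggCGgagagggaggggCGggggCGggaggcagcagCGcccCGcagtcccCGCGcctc
The other valley window called between the phases lies over Hnrnpl, and a stretch of an intron inside it is shown (chr7:28812312-28812551, plus strand, 2 CpGs in 240 bases).
Hnrnpl intron: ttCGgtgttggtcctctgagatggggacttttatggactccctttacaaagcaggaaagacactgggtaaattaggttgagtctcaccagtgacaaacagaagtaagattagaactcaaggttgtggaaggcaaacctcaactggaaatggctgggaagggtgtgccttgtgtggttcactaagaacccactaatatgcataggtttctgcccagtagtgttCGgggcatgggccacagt
From the longest valley, a stretch of a Tet1 intron is shown (chr10:62887829-62888068, given on the plus strand, 1 CpG in 240 bases).
Tet1 valley: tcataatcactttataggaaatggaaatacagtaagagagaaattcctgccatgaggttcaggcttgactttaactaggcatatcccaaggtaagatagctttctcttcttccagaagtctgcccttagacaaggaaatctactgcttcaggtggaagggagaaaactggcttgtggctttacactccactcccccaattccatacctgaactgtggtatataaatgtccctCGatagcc
The last pair comes from an intergenic valley downstream of Sox2 (chr3:34759565-34759804, plus strand, 4 CpGs in 240 bases) and from the methylated window beside it (chr3:34751285-34751524, plus strand, 5 CpGs in 240 bases).
Sox2 distal valley: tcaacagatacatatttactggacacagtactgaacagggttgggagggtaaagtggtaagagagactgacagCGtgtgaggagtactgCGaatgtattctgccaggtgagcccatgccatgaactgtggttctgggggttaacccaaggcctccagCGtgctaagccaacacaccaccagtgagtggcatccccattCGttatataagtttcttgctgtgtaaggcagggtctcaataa
Sox2 distal flank: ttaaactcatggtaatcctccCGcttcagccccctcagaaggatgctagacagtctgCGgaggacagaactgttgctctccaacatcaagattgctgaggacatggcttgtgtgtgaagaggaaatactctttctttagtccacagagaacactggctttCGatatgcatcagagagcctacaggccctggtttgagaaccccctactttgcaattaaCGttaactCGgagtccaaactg
The window around the valley stretch (50 CpGs in 2880 bp) had a mean of 4.21% methylation. The window around the flank stretch (52 CpGs in 4839 bp) had 61.0%. The 2 stretches have similar CpG counts, but the flank window as a whole is poorer in CpGs than the valley window.

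Valleys covered 2.57 Mb in all, of which 94.0% lay inside measured windows. Their span had a median of 5944 bp, with quartiles of 4053 and 9186 bp and extremes of 1327 and 21764 bp. Of the 365 valleys, 223 (61.1%) reached 5 kb, 75 reached 10 kb and 19 reached 15 kb. Most were short in windows: 279 held 3 windows, 59 held 4, 18 held 5 and 9 held 6. The mean methylation of a valley had a median of 4.73% and ranged from 0% to 13.5%. The highest window inside a valley had a mean of 14.98% and the lowest window adjoining one had 15.04%. There were 101 valley windows within 2 percentage points below the threshold, and 67 of the 678 adjoining windows were under 20%, so the border of many valleys depends on where the threshold is set.

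Inside a valley the middle was lower than the edges. The first window of a valley averaged 5.49%, the middle 3.83% and the last 5.81% over the 365 valleys. The next window outside averaged 41.4% on the left and 40.7% on the right, and the second 50.4% and 50.7%. Methylation was still rising with distance, to 57.2% and 56.7% at the tenth window, against 64.0% over all autosomal windows outside valleys. These levels were in part set by the rule, which needs a low run and ends it at the first window of 15% or more.

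**Figure D1:**
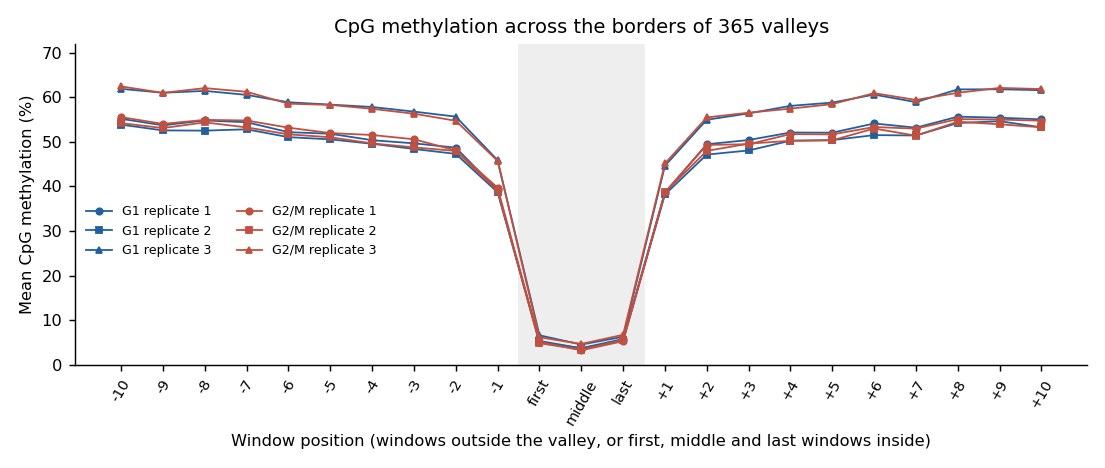
Mean CpG methylation (y axis, %) of the 10 windows on either side of the 365 valleys and of their first, middle and last windows (x axis, in windows, shaded inside the valley), with a line for each library. In every library the level falls from between 38.2% and 45.9% in the adjoining windows to at most 6.69% inside, and replicate 3 of both phases runs above the others outside.

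Valley windows were CpG-rich, but less so than isolated unmethylated windows. Their median was 38.2 CpGs per kb, against 41.8 in isolated windows, 12.7 in the windows flanking valleys and 9.15 in autosomal windows of 15% or more. The median GC content was 53.4% in valley windows, 54.3% in isolated windows, 46.4% in flanks and 43.0% in windows of 15% or more. The ratio of observed to expected CpGs followed the same order, with medians of 0.551, 0.591, 0.237 and 0.193. Because each window holds a fixed number of CpGs, dense windows are short: the median length was 1478 bp in valleys and 5798 bp in windows of 15% or more. Bases marked as repeats of any kind in the reference made up 19.8% of valley windows and 33.3% of windows of 15% or more.

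The fixed CpG number also ties the span of a valley to its CpG density. Spearman's rho between both was -0.908 over the 365 valleys, which is largely built into the windows and is given as a description. The 81 valleys with fewer than 20 CpGs per kb had a median span of 11702 bp and a median methylation of 5.59%. The 49 valleys with 60 or more CpGs per kb had a median span of 2568 bp and a median methylation of 1.85%. Low-density valleys are thus long stretches with few CpGs, such as the Tet1 intron shown above, and high-density valleys are compact islands, such as the one at Rap2a.

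**Figure D2:**
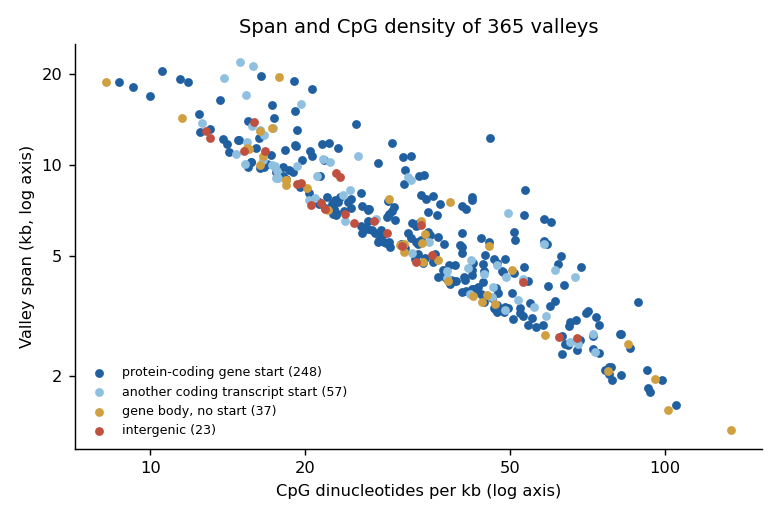
Span of each of the 365 valleys (y axis, kb, log axis) against its CpGs per kb (x axis, log axis), coloured by what the annotation places in it. The points fall along a band because 3 windows of fixed CpG number are the shortest valley allowed, and gene starts occur over the whole range of densities.

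Most valleys held the start of a protein-coding gene. In GENCODE vM21, 248 valleys (67.9%) contained at least 1 annotated protein-coding gene start, 57 (15.6%) contained only the start of another transcript of such a gene, 37 (10.1%) lay over a gene body without any such start, and 23 (6.30%) touched no protein-coding gene. The 37 over gene bodies lay a median of 823 bp from the nearest gene start. By bases, valley windows were 17.1% exon, 54.6% intron and 28.3% outside genes. Isolated windows were 20.8% exon and 48.3% intron, and windows of 15% or more were 3.58% exon and 37.5% intron. Counted by window, a gene start was less frequent in valleys than in isolated windows. It lay in 19.1% of valley windows, 35.8% of isolated windows and 3.28% of windows of 15% or more. Of the 20807 autosomal protein-coding gene starts, 306 (1.47%) lay in a valley, 3490 (16.8%) in an isolated window, 11869 (57.0%) in a window of 15% or more and 5142 (24.7%) in no window of the table.

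Valleys reached further into genes than upstream of them. Among the 197 valleys with exactly 1 gene start, 147 (74.6%) extended further downstream of the start than upstream, with medians of 3581 bp downstream and 1674 bp upstream. The 9 such valleys of 15 kb or more all extended further downstream, with medians of 13055 and 4886 bp. Where a valley held 2 or more gene starts, genes on both strands were usual, in 45 of 51 valleys.

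Promoters, taken as the 250 bases before and 50 after RefSeq gene starts, were searched for 3 known promoter sequences. The GC box (GGGCGG, or CCGCCC on the other strand), a binding sequence of Sp1-type factors, was present in 64.6% of 418 valley promoters, in 65.1% of those in isolated windows and in 36.0% of all 31365 promoters. The TATA sequence TATAAA (or TTTATA) was present in 8.85% of valley promoters, 6.44% of those in isolated windows and 13.6% of all. The CCAAT sequence (or ATTGG) was present in 45.2% of valley promoters, 40.8% of those in isolated windows and 37.3% of all. These matches describe letters in a fixed window and were not tested against binding.

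The table leaves out many CpG-dense starts. Gene starts in no window had a median of 77 CpGs within 500 bp on either side, against 66 for starts in valleys, 62 in isolated windows and 17 in windows of 15% or more. Gaps inside valleys held 70.4 CpGs per kb. The windows nevertheless hold 94.3% of the autosomal CpGs. A start that lies in no window can therefore neither be counted as in a valley nor as outside one.

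The 10 longest valleys each overlapped a protein-coding gene, and 9 of them lay mostly inside it. The longest of all spanned 21764 bp of Tet1 (chr10:62877557-62899320), which encodes a dioxygenase that oxidises 5-methylcytosine and is abundant in mESCs. It was 12.4% exon and 87.6% intron and contained transcript starts at 62887324 and 4 other positions, but not the outermost annotated gene start. Its 6 windows had means of 14.0%, 7.92%, 0%, 0%, 2.36% and 3.49% in genome order, so the 2 windows without any methylated call lay beside the start at 62887324. Over the whole valley, G1 replicates 1 to 3 had 6.10%, 6.02% and 3.28% and G2/M replicates 1 to 3 had 3.33%, 5.48% and 3.55%. The phases overlapped, and the flanks, at 22.0% and 17.4%, were themselves far below the level of the remaining genome.

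Other long valleys showed the same kind of extent inside a gene. The valley of Myo10, an unconventional myosin of filopodia, spanned 21201 bp (chr15:25753101-25774301) at 5.40%. That of Fxr1, an RNA-binding protein, spanned 20320 bp (chr3:34019845-34040164) at 8.30%, with 98 bp upstream and 20221 bp downstream of the gene start. Mybl2, a transcription factor that drives cell cycle genes, had a valley of 19684 bp (chr2:163048216-163067899) at 2.65%, of which 13212 bp lay downstream of the start. Trim71, an RNA-binding protein of stem cells and a known let-7 target, had 19453 bp (chr9:114543757-114563209) at 4.39%, all within the gene and ending 1160 bp short of its annotated start. The means of these 4 valleys lay between 2.65% and 8.30%.

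Etv5, an ETS factor of FGF signalling, carried a valley of 19396 bp inside the gene (chr16:22398657-22418052) at 4.71%, 96.1% of it intron. Around Mcl1, which encodes an inhibitor of apoptosis, the valley was 19147 bp (chr3:95649965-95669111) at 7.17%, and 80.6% of it was outside genes. Kdm5b, a demethylase of histone H3 lysine 4, had 18955 bp (chr1:134554272-134573226) at 8.53%. A valley within Ncoa3, a coactivator of nuclear receptors, had 18737 bp (chr2:166008610-166027346), all intron, at 10.0% and with 8.22 CpGs per kb. Mtf2, a Polycomb-like partner of PRC2, had 18726 bp (chr5:108060788-108079513) at 3.26%. Apart from the one at Mcl1, the 10 longest valleys had most of their bases within genes.

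Pluripotency genes had the largest share of starts in valleys among the gene lists examined. Of 22 autosomal genes on the list, 7 (31.8%) had their start in a valley, against 1.47% of all protein-coding genes. Another 4 lay in isolated windows, 4 in windows of 15% or more and 7 in no window. The list is small, and no test was made because the valleys were chosen on these percentages.

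Tdgf1, a co-receptor of Nodal, shared with Lrrc2 a valley of 15029 bp (chr9:110939504-110954532) at 4.05%. G1 replicates had 2.65%, 3.45% and 4.09% and G2/M replicates 4.32%, 2.24% and 7.53%, so the phases overlapped. Sall4, a zinc finger factor of early development, had a valley of 13614 bp (chr2:168755861-168769474) at 4.63%, with 12082 bp downstream of the start. Dppa5a, an RNA-binding protein of pluripotent cells, had 13114 bp (chr9:78364482-78377595) at 5.68%. Its 2 flanks averaged 15.6%, barely above the threshold, so this valley lay in a wider low region. Nanog, a homeobox factor of naive pluripotency, had 10996 bp (chr6:122700916-122711911) at 10.7%, the highest mean of the 7.

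The remaining 3, named after their values were seen, were Lin28a (an inhibitor of let-7 maturation), with 10715 bp at 6.85%, Utf1 (a chromatin-associated factor of stem cells), with 7166 bp at 4.79%, and Prdm14 (a repressor of DNA methyltransferase genes), with 4502 bp at 5.67%. In the Prdm14 valley replicate 3 stood apart in both phases, at 11.4% in G1 and 10.7% in G2/M, whereas the other libraries were between 1.94% and 5.10%. Pou5f1, which encodes Oct4, had its start in a window of 55.0%. That value is for the whole window and not for the start alone. Sox2, Klf4, Klf2, Klf5, Zfp42 and Tfcp2l1 had starts in no window and are thus unmeasured at the start itself.

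A valley could lie within a gene whose outermost annotated start was in a methylated window. Esrrb, an orphan nuclear receptor of naive pluripotency chosen after its values were seen, had its gene start in a window of 66.7%. Yet 2 valleys lay within the gene. The first, of 16976 bp (chr12:86466253-86483228), averaged 4.00% and contained 1 other transcript start, at 86470117. Its G1 replicates had 4.30%, 4.17% and 2.97% and its G2/M replicates 3.42%, 1.94% and 7.23%. The second, of 14249 bp (chr12:86488494-86502742), averaged 8.26% and contained no start. Between both lay a single window of 19.3%, so the gene held a nearly continuous low stretch broken by 1 window just above the threshold.

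The 60 valleys without a start of any transcript of a protein-coding gene were poorer in CpGs than the other 305. Their median density was 28.9 CpGs per kb against 34.7, their median span 6516 bp against 5850 bp and their median methylation 5.88% against 4.63%. The 37 valleys over gene bodies lay a median of 823 bp from the nearest protein-coding gene start, and 10 of them lay more than 5000 bp away. Many of them thus lay close to a start. The 23 intergenic valleys had a median of 23.4 CpGs per kb. They lay a median of 22593 bp from the nearest protein-coding gene start, and 19 of them lay more than 5000 bp away. The comparison is a description, since all of these valleys were selected on their methylation.

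One intergenic valley, chosen after its values were seen, lay downstream of Sox2, the pluripotency factor whose own start was in no window. It spanned 12269 bp (chr3:34753704-34765972), from 103299 to 115567 bp downstream of the Sox2 start, with 13.1 CpGs per kb. A cluster of enhancers that drives Sox2 in mESCs is known to lie at about this distance downstream of the gene. The valley averaged 9.09%, with 4.39%, 6.31% and 13.9% in the G1 replicates and 7.25%, 11.5% and 11.2% in the G2/M replicates. Its middle window was the lowest at 4.21%, and the flanks were at 61.0% and 34.4%. Other intergenic valleys, also named after the fact, lay near Jarid2, which encodes a subunit of PRC2 (chr13:44703091-44715991, 8.82%, 13483 bp away), and Epha2, an ephrin receptor (chr4:141278682-141289779, 5.33%, 11461 bp away).

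**Figure D3:**
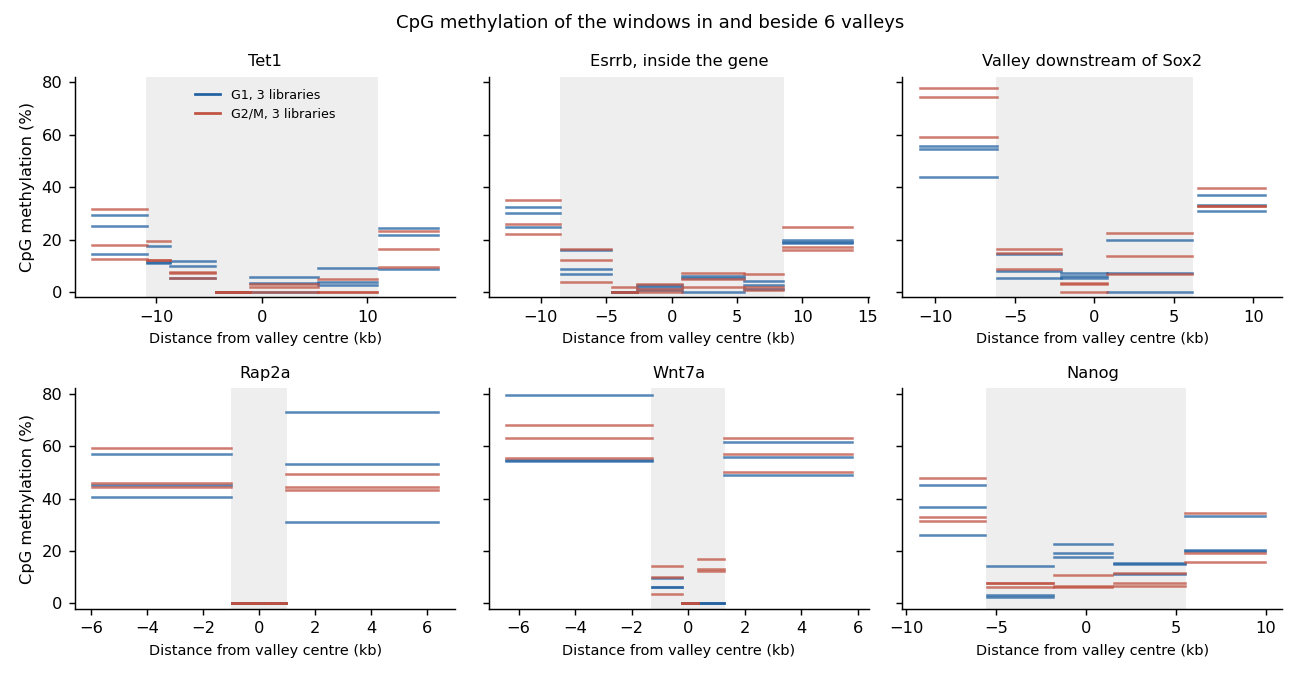
CpG methylation (y axis, %) of each window in 6 valleys (shaded) and of their flanks, against the distance from the valley centre (x axis, kb, a different scale in each panel). Each bar is 1 window of 1 library and spans the window's length. The Rap2a valley is at 0% in all 6 libraries, the Tet1, Esrrb and distal Sox2 valleys are wide and low in both phases, and the right Wnt7a window is at 0% in G1 but from 12.5% to 17.0% in G2/M.

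The lists of developmental regulators also had larger shares of starts in valleys than all protein-coding genes, but smaller ones than the pluripotency list. Homeobox factors outside the Hox clusters had 12 of 113 starts (10.6%) in valleys, developmental signalling genes 6 of 64 (9.38%), other developmental transcription factors 8 of 104 (7.69%) and Hox genes 2 of 39 (5.13%). Housekeeping genes, at 4 of 33 (12.1%), had a larger share than each of these 4 lists. Germline genes silenced by promoter methylation had none of 14 starts in a valley or an isolated window, and 13 of them lay in windows of 15% or more. In the 4 lists of developmental genes between 38.1% and 46.2% of the starts were in no window, so many of these starts were not measured.

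**Figure D4:**
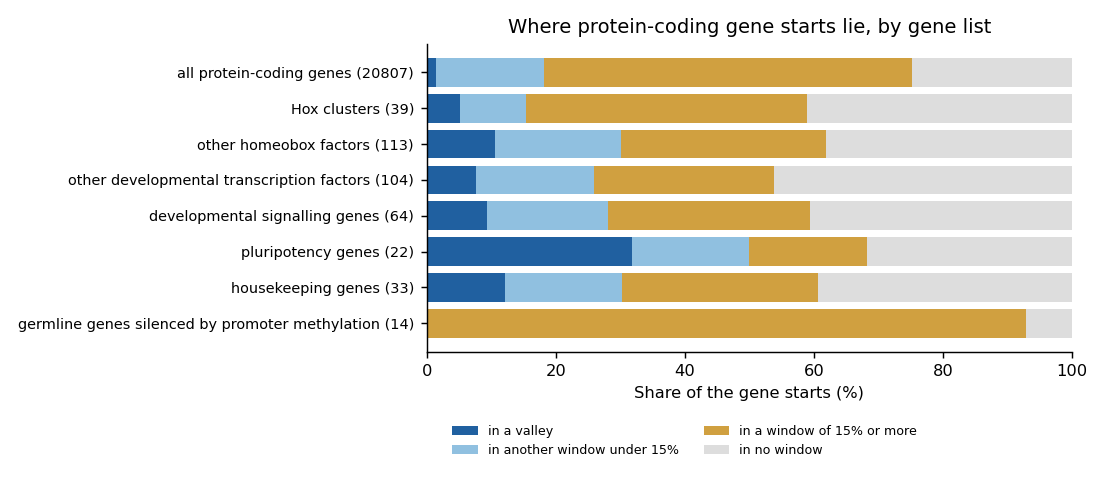
Share of the protein-coding gene starts of each list (x axis, %, number of genes in brackets) that lay in a valley, in another window under 15%, in a window of 15% or more, or in no window. The pluripotency list has the largest dark blue share (31.8%), the germline list has none, and the grey share of unmeasured starts is 24.7% over all genes.

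Among homeobox factors outside the Hox clusters, the longest valleys that contained the annotated gene start were at Lmx1b (7812 bp, 6.98%), which patterns limbs and neurons, at Uncx (5538 bp, 6.48%), a factor of somites, and at Pou3f3 (4995 bp, 1.57%), a neural POU factor. The longest with a gene start among other developmental factors were at Ebf3 (12203 bp, 6.92%), Tfap2c (6844 bp, 4.42%), a factor of trophoblast and germ cells, and Zic5 (6811 bp, 7.03%). For signalling genes, by the same limit, they were at Bmp4 (9186 bp, 2.16%) and Nodal (7473 bp, 4.68%), both ligands of the TGF-beta superfamily, and at Dll4 (7298 bp, 6.20%), a Notch ligand. All 9 had means under 8%.

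The Hox clusters, known as wide Polycomb targets, were mostly outside the valleys. The Hoxa and Hoxb clusters held 1 valley each, at Hoxa9 (chr6:52228685-52234125, 7.76%) and at Hoxb7 (chr11:96282420-96289578, 6.16%), and the Hoxc and Hoxd clusters held none. The Hoxb cluster was taken here without Hoxb13, which is on the list of Hox genes. Windows covered from 79.6% to 83.5% of the bases of the 4 clusters. Of these windows 12 were under 15% in Hoxa, 11 in Hoxb, 4 in Hoxc and 7 in Hoxd, and the cluster medians lay between 25.4% and 30.6%. The cluster medians were thus below the 64.0% of autosomal windows outside valleys, which is a mean and so a different measure. Most windows of each cluster were above the threshold.

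Housekeeping valleys were at Rplp0, a ribosomal protein (11320 bp, 8.36%), Gapdh, a glycolytic enzyme (7139 bp, 3.77%), Hnrnpl, a splicing regulator (6006 bp, 1.16%), and Tbp, the TATA-binding protein (5511 bp, 4.76%). The Rplp0 valley also held the start of Gcn1l1 and the Tbp valley that of Psmb1.

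Valleys also held 10 microRNA hairpins of the RefSeq table, 1.09% of those on the autosomes. Among them, named after the fact, Mir196b (chr6:52230081-52230165) lay in the Hoxa9 valley and Mir181d in a valley of 10363 bp at Nanos3, an RNA-binding protein of germ cells. The mature 5p strand of Mir196b, a microRNA known to target Hox transcripts, is shown with its seed (bases 2 to 8) in capitals.
mmu-miR-196b-5p: uAGGUAGUuuccuguuguuggg

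The extremes of the methylation range were an island and an intergenic stretch. All 3 windows at Rap2a, which encodes a small GTPase (chr14:120477389-120479334, 1946 bp, 98.5 CpGs per kb), were listed at 0% in all 6 libraries, while the flanks averaged 48.7% and 49.1%. The highest valley (chr4:22494505-22501631, 7127 bp) averaged 13.5% and lay 6139 bp from the start of Pou3f2, a neural POU factor. There G1 replicates had 14.6%, 16.2% and 15.1% and G2/M replicates 8.86%, 9.82% and 16.7%.

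The question of the sorted populations was whether methylation differs between G2/M, before division, and G1, after it. Over all 1217 valley windows, G1 replicates 1 to 3 averaged 4.69%, 4.74% and 5.73% and G2/M replicates 1 to 3 averaged 4.42%, 4.48% and 5.72%. The 3 G1 libraries thus had a mean of 5.06% ± 0.581 (SD, n = 3) and those of G2/M one of 4.87% ± 0.734 (SD, n = 3). G1 was higher by 0.185 percentage points, less than the SD of either phase (exact permutation over 20 labelings, two-sided, p = 0.50, smallest possible p = 0.10). That spread includes the high level of replicate 3 in both phases, which a test without pairing leaves in. Same-numbered libraries differed by 0.279, 0.267 and 0.00863 points, G1 higher in 3 of 3. The difference changed sign without G1 replicate 3 (-0.151), G2/M replicate 1 (-0.0422) or G2/M replicate 2 (-0.0116), each of which leaves a pair incomplete.

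The replicate number moved valley methylation more than the phase did. Replicate 3 of both phases averaged 1.14 points above replicates 1 and 2 in valleys, which is 24.8% of their level. In the flanks it was 6.59 points (16.8%) and in all autosomal windows outside valleys 7.37 points (12.0%) above. Its part in the phase comparison was not tested beyond leaving out single libraries.

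Set against other windows, the phase difference in valleys was small, with same-numbered pairs of one sign in each comparison. The phase difference in valleys was 0.170 points more toward G1 than that of isolated windows (exact permutation p = 0.30), with 0.123, 0.382 and 0.00538 points in the same-numbered pairs. Set against all other autosomal windows it was -0.661 points, that is, less toward G1 (exact permutation p = 0.70), with -0.972, -0.344 and -0.668 points in the pairs. This became 0.127 points when the libraries were scaled to the same mean. Edges minus interiors differed by -0.0742 points between G1 and G2/M (exact permutation p = 0.50), with -0.109, -0.0695 and -0.0442 points in the pairs.

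In the windows flanking valleys, G1 was the lower phase in each same-numbered pair. Flanking windows averaged 39.3%, 39.0% and 45.7% in G1 against 39.7%, 39.3% and 46.1% in G2/M, and the same-numbered differences, G1 minus G2/M, were -0.387, -0.367 and -0.373 points. The difference of the means, -0.376, was smaller than the SD of either phase, 3.81 (exact permutation p = 0.50). That spread includes the high level of replicate 3 in both phases, which this test, made without pairing, leaves in. With the pairs kept, an exact sign-flip test gave p = 0.25, its smallest possible value. The difference of the means changed sign without G1 replicate 1 (0.640), G1 replicate 2 (0.807) or G2/M replicate 3 (1.82). Each of these omissions leaves a pair incomplete. With runs of 5 or more windows the difference was 1.48. Relative to all autosomal windows outside valleys, the flanks differed by -1.22 points between G1 and G2/M (exact permutation p = 0.30, chosen after seeing the data). Benjamini-Hochberg adjusted values over these 6 comparisons, from exact permutation tests, were 0.60 to 0.70.

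**Figure D5:**
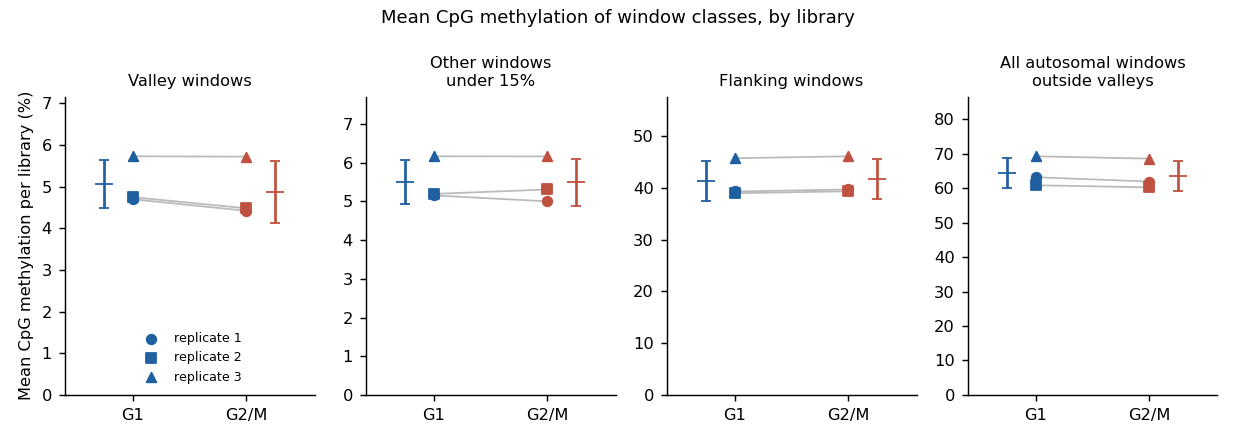
Mean CpG methylation per library (y axis, %, each panel from 0) in G1 and G2/M (x axis) for valley windows, other windows under 15%, flanking windows and all autosomal windows outside valleys. Symbols are replicates, grey lines join same-numbered libraries, and the outer bars are the mean ± SD of 3 libraries. Replicate 3 is the highest in both phases in every panel, and the G1 and G2/M bars overlap.

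Single valley windows rarely separated the phases. In limma across all 359192 windows, on log2((percentage + 1)/(100 - percentage + 1)), 144 of 1217 valley windows (11.8%) had an unadjusted p under 0.05, 87 with G1 higher and 57 with G1 lower, against 2.11% of all windows. Of the valley windows, 727 (59.7%) were listed at 0% in at least 1 library and 183 (15.0%) in all 6. When every window listed at 0% in any library was left out, the count was 14 of 490 (2.86%), against 2.31% of all windows. The 3 G1 values all exceeded the 3 G2/M values in 49 valley windows (4.03%), against 4.12% of all windows, and all fell below them in 34 (2.79%), against 1.98%. The share of valley windows with unadjusted p under 0.05 was thus high only while windows at 0% were included.

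After adjustment over all windows 2 valley windows had a limma p under 0.05, against 0.00223% of all windows, which is 8 windows. The first lies over the start of Wnt7a, a secreted Wnt ligand (chr6:91411320-91412226, 63 CpGs). It was listed at 0% in all 3 G1 replicates and at 17.0%, 12.5% and 13.0% in the G2/M replicates (limma adjusted p = 0.00270). The groups did not overlap, while the neighbouring valley window was at 0% in all 6 libraries. The second is a window of Hnrnpl (chr7:28811322-28813906, 53 CpGs), with 2.63%, 2.08% and 2.86% in G1 and 0% in all G2/M replicates (limma adjusted p = 0.0243). Neither was called by limma on the percent scale, after centring libraries on their medians, without a trend or with the replicate number as a block (adjusted p = 0.255 for Wnt7a and 0.411 for Hnrnpl), and both contain values of 0% whose depth is unknown.

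Next in order of p were a window at Fam43a (chr16:30600850-30601594), at 0% in G1 and 1.46%, 1.52% and 2.13% in G2/M (adjusted p = 0.103 in limma), and a window at Dedd2 and Zfp526 (chr7:25220221-25221434), with 1.89%, 1.47% and 1.16% in G1 and 0% in G2/M (limma adjusted p = 0.177). These differences are of 1 to 2 percentage points near the floor of the scale.

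The valleys with the largest phase differences, among those with all 3 same-numbered differences in one direction, were chosen for that difference, so their values are given without a test. In the direction of G1, Nanog had 12.1%, 14.8% and 13.4% in G1 against 6.91%, 8.53% and 8.67% in G2/M, a difference of 5.41 points with no overlap. Its middle window, over the gene start, had 17.6%, 19.1% and 22.7% in G1 against 6.64%, 10.8% and 6.38% in G2/M. Szrd1 had 17.6%, 6.63% and 7.81% in G1 against 7.67%, 2.50% and 5.54% in G2/M, with overlap between the groups. A valley shared by Kif5a, a kinesin heavy chain, and Dctn2, a dynactin subunit, had 11.0%, 14.2% and 14.1% in G1 against 8.59%, 8.44% and 7.48% in G2/M.

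In the direction of G2/M, a valley shared by Casp9, an initiator caspase, and Dnajc16 had 9.88%, 8.22% and 11.4% in G1 against 15.8%, 15.6% and 16.6% in G2/M. Wnt7a as a whole had 2.05%, 3.21% and 2.15% in G1 against 9.01%, 5.42% and 9.07% in G2/M. Sik1, a salt-inducible kinase, had 4.56%, 3.58% and 3.96% in G1 against 13.6%, 4.72% and 8.94% in G2/M. The groups did not overlap in these 3 valleys. Over all valleys, the 3 G1 means all exceeded the 3 G2/M means in 17 (4.66%) and all fell below them in 14 (3.84%), where the shares over single windows of the table were 4.12% and 1.98%. The difference between G1 and G2/M ranged from -6.16 to 6.05 points over the 365 valleys, with a median of 0.247.

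Windows chosen by the rule on 1 replicate number alone were mostly low in the other replicates too. When the rule was applied to the 2 libraries of replicate 1 alone it gave 427 valleys, on replicate 2 alone 418 and on replicate 3 alone 322. Of the 1452 windows chosen on replicate 1, 85.9% had a mean under 15% in the other replicates. For the 1410 chosen on replicate 2 and the 1072 chosen on replicate 3 the shares were 87.5% and 94.2%. Their mean in the replicates not used was 6.75%, 6.50% and 4.73%. In all, 814 of the 1217 windows (66.9%) were in valleys of each replicate alone. That overlap is a description, since the 1217 windows were chosen on the same 6 libraries. The rule on G1 libraries alone gave 369 valleys and on G2/M libraries alone 380, and 995 windows were in both, which is 80.5% of the G1 windows and 77.6% of the G2/M windows. The order of valley windows by methylation was only moderately stable, with correlations between libraries from 0.561 to 0.638 across the 1217 windows, which are not independent replicates.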

How the data were processed

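EM-seq was performed in 3 G1 and 3 G2/M samples of mESCs. The authors trimmed reads with Trim Galore 0.6.4, aligned them to GRCm38/mm10 with Bismark 0.22.1 and bowtie2, discarded duplicate and poorly mapped reads and outlier regions, and deposited the percent CpG methylation of each 100-CpG window, without read counts and with no stated normalization between libraries. Windows needed at least 1 in 5 CpGs observed in all datasets. All 6 sample columns were used and 0 were left unassigned. Depth per library is therefore unknown.

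Valleys were found as described above, and 99.6% of autosomal windows started at a CpG of the GRCm38.p6 reference, so coordinates were used directly. Genes came from GENCODE vM21, promoters and microRNAs from RefSeq tables of GRCm38.p6. The list shares are plain counts. Library means of G1 and G2/M were set against each other by exact permutation, two-sided. For single windows, R 4.3.3 with limma 3.58.1 was used (lmFit, eBayes with a trend, Benjamini-Hochberg over all windows), and this step was tested on simulated data. Other steps ran in Python 3.11.15 with pandas 2.3.3, numpy 2.4.6 and, for figures, matplotlib 3.10.9.

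The valleys, gene lists, tests and alternatives were chosen with earlier results of these data known. Valleys described singly were the 10 longest, the lowest and highest in mean, the 3 with the largest difference in each direction among those with 3 same-signed pairs, those of the 2 windows lowest in limma p in each direction, and those of the 3 list members with the longest valleys (up to 4 for the pluripotency, housekeeping and germline lists). Others are marked as chosen afterwards. Sequence stretches were the 250 bases upstream of a RefSeq start or the 240 bases nearest the middle of a window without an exon or repeat. Alternatives were other thresholds, run lengths and gaps, weights, medians, scaling, other limma settings, the replicate block and leaving out each library. The conversion controls were not analysed here.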

Additional observations from a re-analysis of the deposited data

How the results depend on the processing

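The exact permutation and sign-flip tests used for library means cannot reach p under 0.05 with 3 libraries a group, so these p-values say nothing about stability. A threshold of 10%, a threshold of 20% or runs of 5 or more windows gave 200, 586 or 27 valleys and 661, 2047 or 144 windows. With the threshold of 20% the phase difference (G1 minus G2/M, percentage points) became -0.000971 in valleys and -0.0634 in valleys minus isolated windows. With runs of 5 or more it became 1.48 in flanks and 0.634 in flanks minus the rest. Without windows listed at 0% the edge minus interior difference became 0.0648, and with libraries scaled to one mean the valley minus rest difference became 0.127. The cause was not tested.

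Leaving out each library in turn gave -0.151 to 0.608 in valleys, -2.74 to 1.42 in valleys minus the rest, 0.0650 to 0.257 in valleys minus isolated windows, -0.123 to -0.0169 in edges minus interiors, -2.57 to 1.82 in flanks and -1.83 to -0.737 in flanks minus the rest. In flanks the sign turned without G1 replicate 1 (0.640), G1 replicate 2 (0.807) or G2/M replicate 3 (1.82), and in valleys minus the rest without G1 replicate 3 (1.42) or G2/M replicate 2 (0.814). Every such omission leaves a same-numbered pair incomplete.

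The 144 valley windows with an unadjusted limma p under 0.05 became 90 with libraries centred and 14 without windows listed at 0%, which leaves fewer windows tested, and 141 to 172 with a library left out. The 2 valley windows with an adjusted limma p under 0.05 became 1 with an offset of 5 percentage points, which is that of Wnt7a, and 2 to 6 with a library left out, 4 to 6 for every library but G2/M replicate 2. None was called by limma on the percent scale, with libraries centred, without windows listed at 0%, without a trend or with the replicate block, where 107, 90, 14, 103 and 200 had an unadjusted p under 0.05.

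Same-numbered libraries are called matched in the study. Their deviations correlated from 0.0335 to 0.0434 over valley windows, under the 0.1 set here for treating them as pairs. Each of these 3 correlations was nevertheless above every correlation of differently numbered libraries (-0.0490 to 0.0109). A correlation across windows does not register a shift shared by all windows of a library, so it cannot decide the pairing of library means. Such a shift was present, since replicate 3 was the highest in both phases, by 1.14 points over replicates 1 and 2 in valleys. The paper also describes collecting cells of both populations from each sort. Pairing thus has a basis in the study as well as in the values. The sample labels give only the replicate numbers. With the replicate block the exact sign-flip test gave p = 0.25, its smallest, for the valley difference of 0.185, valley minus rest of -0.661, valley minus isolated of 0.170, edge minus interior of -0.0742, flank of -0.376 and flank minus rest of -1.22. In limma the block gave 200 valley windows (16.4%, against 4.83% of all) and adjusted p = 0.255 for Wnt7a and 0.411 for Hnrnpl. Unknown depth limits every value near 0%. A window listed at 0% has no stated number of calls beyond the minimum of 1 in 5 CpGs observed.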
